A study of Homo sapiens with 5 samples.

Results

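The sites occupied by ATF3 and p53 around *CDKN1A* were examined in HCT116, a line of human colorectal cancer cells that carries wild-type p53. A peak belonged to the locus when its centre lay between 50 kb upstream of the annotated start of *CDKN1A* and 20 kb past its end on hg19, which is chr6:36594237-36675114. Of 123989 peaks in the 5 deposited lists, 22 met this rule. ATF3-Ctrl gave 8 of them, ATF3-CPT gave 10, p53-CPT gave 4, and the ATF3-KO and p53-KO lists gave 0. The lists hold no summits, so distances were measured between the centres of peaks.

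*CDKN1A* encodes p21, an inhibitor of cyclin-dependent kinases that halts the cell cycle after DNA damage, and it is among the best known genes activated by p53. p53 is a tumour suppressor that binds DNA at a response element made of repeated half-sites. ATF3 is a stress-induced bZIP transcription factor. Proteins of its family bind as dimers to the ATF/CRE element and to the AP-1 element, and some pair with C/EBP proteins on a composite element. Camptothecin (CPT) traps topoisomerase I on DNA and thereby causes DNA breaks.

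For 4 h, ATF3-WT cells were given either DMSO (ATF3-Ctrl) or CPT at 1.5 μM (ATF3-CPT), and ATF3 was immunoprecipitated from both and from ATF3-knockout cells (ATF3-KO). p53 was immunoprecipitated from p53-WT cells that had received CPT at the same dose and time (p53-CPT) and from p53-knockout cells (p53-KO). Both knockout libraries are labelled as DMSO, so p53-CPT and p53-KO differed in genotype and treatment, and these cannot be told apart. The ATF3-KO cells came from single clones made by AAV-mediated homologous recombination at *ATF3* exon 3, and all cells were cross-linked with DSG and then formaldehyde. Each group had 1 library and no replicate, so no difference between groups could be tested against the spread between cultures. The libraries held 12947516 (ATF3-Ctrl), 15457013 (ATF3-CPT), 12820520 (ATF3-KO), 3169743 (p53-CPT) and 1984941 (p53-KO) tags. The normalized tag count is in tags per 10000000 tags of the library and is given with an exact Poisson 95% interval. The score counts the tags of a peak, taking no more than 1 at each position, and depends on depth. These intervals cover counting error only, not the spread between cultures. They treat tags as independent, but reads amplified by PCR without molecular identifiers are not independent molecules, so the intervals may be too narrow.

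The sequences under the peaks are shown first for the 3 strong p53 peaks, since the results turn on where the p53 element lies. All are from GRCh37, the build of hg19, on the plus strand, which is the strand of *CDKN1A*. Capitals mark a p53 response element of 20 bases found with at most 3 mismatches to its consensus, and in site A also the letters TGATGCAA of the composite element, which come first. The names of sites A and C are those of the study, which described p53 sites A, C and D at *CDKN1A*. Its text gives no positions, so matching the names to peaks was an inference, and site D was not assigned. Site A spans chr6:36634922-36635121, site C chr6:36644221-36644250, and the intron site chr6:36650415-36650444.
Site A: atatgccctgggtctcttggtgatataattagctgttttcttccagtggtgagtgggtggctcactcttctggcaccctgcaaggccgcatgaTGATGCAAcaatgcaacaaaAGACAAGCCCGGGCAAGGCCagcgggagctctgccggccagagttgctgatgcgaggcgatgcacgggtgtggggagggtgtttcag
Site C: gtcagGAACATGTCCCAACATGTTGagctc
Intron site: agaaaCTGCAAGTTGGGACTTGTCCctagg
The element had 1 mismatch at site A (36635035 to 36635054), 2 mismatches at site C (36644226 to 36644245) and 3 mismatches in the intron (36650420 to 36650439). The element of site C spanned the annotated start of the gene at 36644237.

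A further set shows the motifs under ATF3 peaks after CPT. Capitals mark the AP-1 core, TGACTCA or its reverse complement TGAGTCA, except in the peak centred at 36617780, where they mark TGATGCAA. The peaks are named by their centres, and the stretches shown span chr6:36612469-36612568, chr6:36617730-36617829, chr6:36642892-36642921, chr6:36647138-36647237 and chr6:36648299-36648328.
ATF3-CPT 36612519: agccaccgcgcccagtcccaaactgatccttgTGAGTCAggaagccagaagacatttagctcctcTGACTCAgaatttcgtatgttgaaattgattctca
ATF3-CPT 36617780: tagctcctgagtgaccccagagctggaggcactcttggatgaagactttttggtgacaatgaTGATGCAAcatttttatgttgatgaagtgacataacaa
ATF3-CPT 36642900: gaaagaattcgTGACTCAtcctaagtgggc
ATF3-CPT 36647188: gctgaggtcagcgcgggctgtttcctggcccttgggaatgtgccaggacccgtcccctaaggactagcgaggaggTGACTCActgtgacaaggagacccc
ATF3-CPT 36648304: ttgcaggaaacTGACTCAtcactactccct

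*CDKN1A* (ENSG00000124762.14_6) lies at chr6:36644237-36655114 on the plus strand in GENCODE release 44. Its MANE transcript starts at 36646491, 2254 bp downstream of the gene start used by 3 of its 8 transcripts. The window of 80878 bp also holds *PANDAR* and *DINOL*, long noncoding RNAs on the minus strand that are known as p53-induced transcripts of this locus, and the first part of *RAB44*. The processed pseudogene *LAP3P2* on the plus strand and the small RNA genes *RNU1-88P* and *Y_RNA* lie there too. Peaks of ATF3 were dense here. ATF3-Ctrl had 9.89 peaks per 100 kb of the window, against a median of 1.71 over the same windows of 20163 protein-coding genes, and 98.6% of those windows were less dense. ATF3-CPT had 12.4 per 100 kb, against a median of 3.91, and 95.6% of windows were less dense. By count, which does not adjust for window length, 5.35% of windows held at least 8 ATF3-Ctrl peaks and 14.6% at least 10 ATF3-CPT peaks. Only 0.109% of windows held 4 or more p53-CPT peaks that had no base in common with a p53-KO peak.

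**Figure D1:**
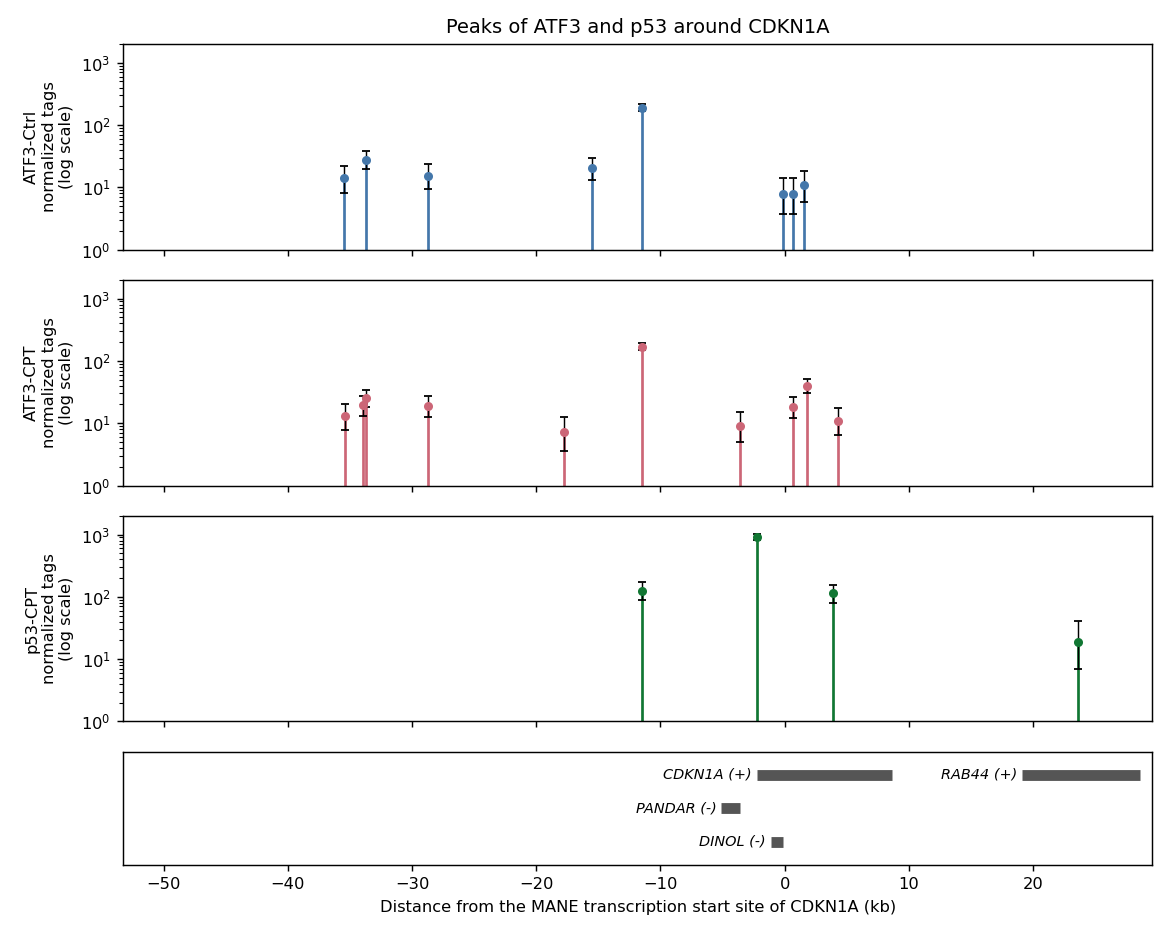
Normalized tag counts (tags per 10000000, log scale) of every peak in the window by distance from the MANE transcription start site of *CDKN1A* (kb), in ATF3-Ctrl, ATF3-CPT and p53-CPT, with genes below; points are peaks and bars are 95% Poisson intervals. The ATF3 peaks of both libraries and a p53 peak stand together 11465 to 11469 bp upstream, while the tallest p53 peak, at 905.4, stands 2259 bp upstream.

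None of the 22 peaks overlapped a peak of the matching knockout list. The nearest ATF3-KO peak was 750224 bp or more from each ATF3 peak of the window, and the nearest p53-KO peak was 353290 bp or more from each p53 peak. Over the whole lists, 5.38% of ATF3-Ctrl peaks and 2.60% of ATF3-CPT peaks overlapped an ATF3-KO peak, while 60.9% of p53-CPT peaks overlapped a p53-KO peak. What the knockout lists could show depended on the strength of the peak. At equal binding, site A in ATF3-Ctrl would have had a score of 132.7 in ATF3-KO, where the threshold was 11, and site C would have had 110.2 in p53-KO, where the threshold was 6. The ATF3-Ctrl peaks centred at 36646350 and 36647131, the ATF3-CPT peak at 36628768 and the p53-CPT peak at 36670093 would have fallen below these thresholds, at 8.9, 10.9, 8.3 and 4.4, so binding of their strength was not detectable in the knockout lists. The ATF3-CPT peak at 36642900 would have had 11.6, close to the threshold. That at 36650760 had a local enrichment of 4.24-fold, near the 4-fold that listing required. The absence of these peaks from ATF3-KO therefore says little.

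p53 binding after CPT was strongest at site C, the 5′ p53 response element at the start of the gene. This peak, chr6:36644073-36644391, scored 176 and held 905.4 normalized tags (803.7 to 1016.5), from 287 tags. Its centre lay 5 bp upstream of the annotated gene start and 2259 bp upstream of the MANE start site. Among the 3600 p53-CPT peaks without p53-KO overlap, it had the highest score and the second highest normalized tag count, and their median score was 9.

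Site A, in the intergenic region 9215 bp upstream of the gene start, was a second p53 peak at chr6:36634863-36635181. It scored 36 and held 126.2 normalized tags (90.2 to 171.8), from 40 tags. A peak of about the same height lay within the gene at chr6:36650254-36650572, in intron 1 of the MANE transcript and 3922 bp downstream of its start, with a score of 36 and 113.6 normalized tags (79.5 to 157.2), from 36 tags. The intervals of these peaks overlapped each other, and neither overlapped that of site C. Site A and the intron peak each had a higher score than 92.4% of the 3600 peaks. The fourth peak, chr6:36669934-36670252 in an intron of *RAB44*, scored 7, equal to the threshold of the list, with 18.9 normalized tags (6.9 to 41.2).

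**Figure D2:**
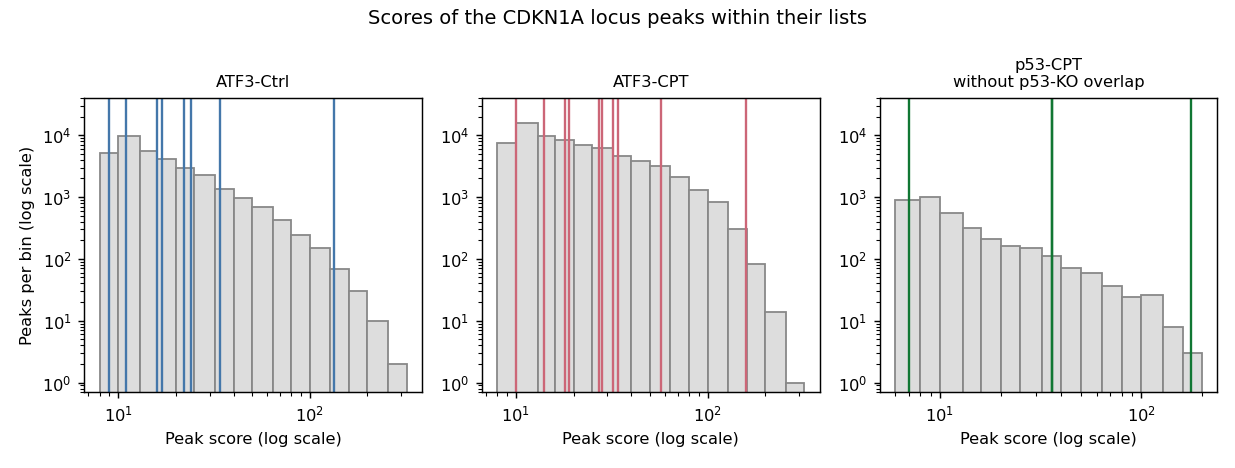
Histograms of peak scores (both axes log scale) of the ATF3-Ctrl list, the ATF3-CPT list and the p53-CPT peaks without p53-KO overlap, with coloured lines at the scores of the peaks in the window (the p53 peaks at site A and in the intron share a line at 36). The line at 176 lies in the last bin of the p53 scores, and the lines at 134 and 158 lie in the upper tails of the ATF3 scores.

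ATF3 bound most strongly at site A, both before and after CPT. In ATF3-Ctrl the peak was chr6:36634963-36635089, with a score of 134 and 190.8 normalized tags (167.7 to 216.1), from 247 tags. In ATF3-CPT it was chr6:36634964-36635088, with a score of 158 and 168.9 normalized tags (149.0 to 190.6), from 261 tags. It ranked 89 by score among 33966 ATF3-Ctrl peaks and 103 among 70702 ATF3-CPT peaks, where no peak on chromosome 6 had a higher score. Local enrichment given in the lists was 146.64-fold in ATF3-Ctrl and 127.53-fold in ATF3-CPT.

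Among the p53 peaks of the window, site A alone had bases in common with an ATF3 peak. Its p53 centre (36635022) lay 4 bp upstream of the ATF3 centre (36635026), which was the same in both ATF3 lists. Of 683 p53-CPT peaks without p53-KO overlap that overlapped an ATF3-CPT peak, the median distance was 58 bp, and 57 (8.35%) were within 4 bp. Overlap with ATF3-CPT was found for 10.5% of all p53-CPT peaks and for 19.0% of those without p53-KO overlap. Overlap with ATF3-Ctrl was found for 6.88% of all p53-CPT peaks. The 1 of 4 in the window is above these shares, but 4 peaks are too few to tell it apart from them.

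Site C, the strongest p53 site, had no ATF3 peak within 1000 bp. The nearest ATF3-CPT centre lay 1332 bp upstream, at chr6:36642838-36642962, with a score of 14 and 9.1 normalized tags (5.0 to 15.2). The nearest ATF3-Ctrl centre lay 2118 bp downstream, at chr6:36646287-36646413, with a score of 9, equal to the threshold, and 7.7 normalized tags (3.7 to 14.2). The p53 peak in the intron had an ATF3-CPT centre 347 bp downstream, at chr6:36650698-36650822, with 18 as its score and 11 normalized tags (6.4 to 17.6), and the nearest ATF3-Ctrl centre 2345 bp upstream. The p53 peak in *RAB44* was 19333 bp from the nearest ATF3-CPT centre and 22025 bp from the nearest ATF3-Ctrl centre. The order of strength thus differed between the factors, with p53 highest at site C and ATF3 highest at site A.

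The ATF3-CPT peak nearest to site C lay at the 5′ end of *PANDAR*, with its centre 3 bp inside the transcript. The same centre also lay in an exon of the pseudogene *LAP3P2*. The sequence printed above shows its AP-1 core at 36642903 to 36642909. The ATF3-Ctrl peak nearest to site C lay 14 bp from the 5′ end of *DINOL* and 141 bp upstream of the MANE start site of *CDKN1A*. Each of these peaks stood in 1 list only, and both were weak.

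The change of ATF3 after CPT was read from the 5 sites where ATF3-Ctrl and ATF3-CPT peaks shared at least 1 bp, as the ratio of normalized tag counts with an exact conditional binomial (Clopper-Pearson) 95% interval. At site A the counts were 190.8 in ATF3-Ctrl and 168.9 in ATF3-CPT, a ratio of 0.89 (0.74 to 1.06). The interval includes 1, so a change at site A was not detectable at this depth, and its upper end lies below the median ratio of 1.79 over all 27104 shared sites of the genome. Of those sites, 14.6% had a lower ratio than site A. Divided by that median, the ratio of site A was 0.49, which made it the 1 site of the window at least 2-fold lower. The ratio of scores, without adjustment of either count other than by library total, was 0.99. Peaks held 5.6% of the tags of ATF3-Ctrl and 12.76% of those of ATF3-CPT. With 1 library each, binding and the efficiency of immunoprecipitation cannot be told apart in the median of 1.79 or in ratios between these libraries.

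The place of site A among sites of like strength depended on the library that defined strength, because a filter on either library's tags bears on the ratio itself. The 50 shared sites with at least as many ATF3-Ctrl tags as site A and no ATF3-KO overlap had a median ratio of 0.67, and 39 of them were at or below the ratio of site A. The 102 such sites with at least as many ATF3-CPT tags had a median of 1.64, and 20 were at or below it. The 54 such sites with at least the same mean over both libraries had a median of 0.87, close to the 0.89 of site A, and 29 were at or below it. Shared sites that overlapped a p53-CPT peak without p53-KO overlap numbered 357 and had a median ratio of 1.75, of which 30.3% were below 1.

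The 3 shared sites further upstream had ratios whose intervals included 1. At the ATF3-Ctrl peak chr6:36610975-36611101 (ATF3-CPT chr6:36611025-36611149), the scores were 16 and 19 and the counts 13.9 and 12.9, a ratio of 0.93 (0.47 to 1.87). At chr6:36612744-36612870 (ATF3-CPT chr6:36612730-36612854), the score was 34 in both and the counts were 27.8 and 25.2, a ratio of 0.91 (0.56 to 1.47). At chr6:36617743-36617869 (ATF3-CPT chr6:36617718-36617842), the scores were 22 and 28 and the counts 15.4 and 18.8, a ratio of 1.21 (0.66 to 2.27). All of these peaks were intergenic, between 26431 and 33199 bp upstream of the gene start.

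Inside *CDKN1A*, intron 1 of the MANE transcript held the 1 shared site with a higher ATF3 count after CPT by the 2-fold rule. The site chr6:36647068-36647194 (ATF3-CPT chr6:36647126-36647250) had scores of 11 and 27 and counts of 7.7 in ATF3-Ctrl and 18.1 in ATF3-CPT, a ratio of 2.35 (1.11 to 5.41). This was the 1 site of the 5 that was at least 2-fold higher, where the share over all shared sites was 43.6%. No site was at least 2-fold lower, where that share was 2.37%. The ratio of 2.35 exceeded that of 67.2% of shared sites. It was 1.31 when divided by their median, below the 2-fold rule, and the site was not paired with centres within 50 bp or kept with a score of at least 15 in both lists.

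**Figure D3:**
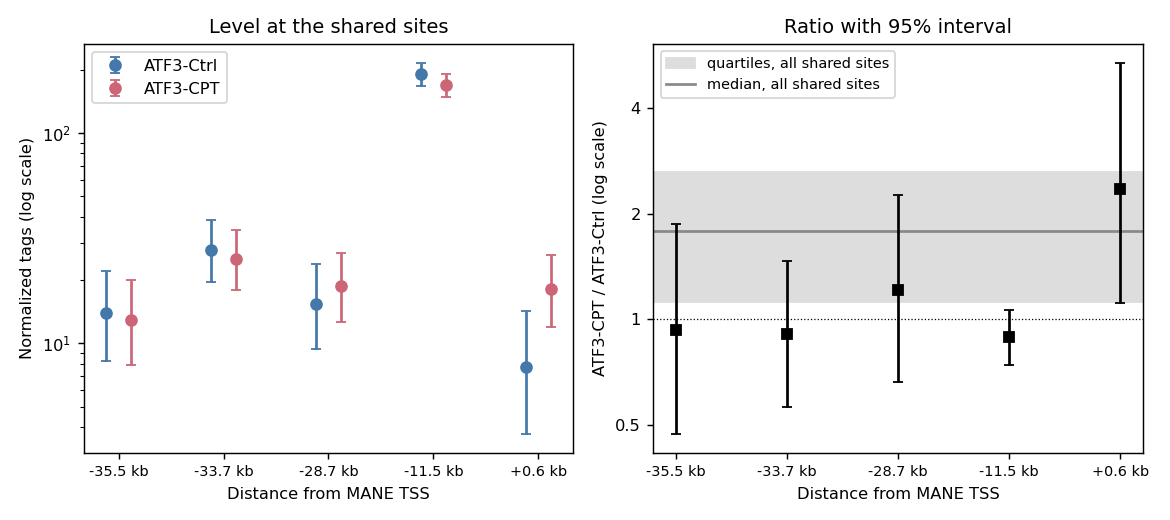
Left, normalized tag counts (log scale) of ATF3-Ctrl (blue) and ATF3-CPT (red) at the 5 shared sites by distance from the MANE start site, with 95% Poisson intervals; right, the ratio (log scale) with its 95% interval, beside the median and quartiles of 27104 shared sites. The 4 upstream ratios lie between 0.89 and 1.21 with intervals that include 1, and the intron ratio is 2.35.

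Another pair of peaks in intron 1 had no base in common but lay 236 bp apart. ATF3-Ctrl had chr6:36648005-36648131, with a score of 17 and a count of 10.8 (5.9 to 18.1). ATF3-CPT had chr6:36648242-36648366, with a score of 57 and a count of 39.5 (30.2 to 50.7), the second highest ATF3-CPT peak of the window, which lies in an exon of 1 of 8 transcripts. The headers of the lists set a minimum distance between peaks of 252 bp (ATF3-Ctrl) and 248 bp (ATF3-CPT), so a second peak in either list at the other's position could not be listed. When the peaks were paired by centres within 300 bp, a rule chosen after the data had been seen, the ratio was 3.65 (2.02 to 7.07). Each peak held an AP-1 core within 200 bp around its centre, but not the same core. The ratio therefore compares counts at different elements and does not show a change at a single site.

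The other peaks stood in 1 ATF3 list only. Over the genome, 79.8% of ATF3-Ctrl peaks had an ATF3-CPT partner, against 5 of 8 in the window, and 61.7% of ATF3-CPT peaks lacked an ATF3-Ctrl partner, against 5 of 10. In ATF3-CPT these were chr6:36612457-36612581 (score 32, count 19.4), chr6:36628706-36628830 (score 10, count 7.1), the *PANDAR* and 36648304 peaks, and chr6:36650698-36650822 (score 18, count 11). At equal binding in ATF3-Ctrl, the peak centred at 36628768 would have had a score of 8.4, under the threshold of 9, so its absence there was within the limit of the list. The peaks centred at 36612519, 36642900 and 36650760 would have had 26.8, 11.7 and 15.1. Listing also required 4-fold local enrichment, and theirs in ATF3-CPT was 13.42-, 6.34- and 4.24-fold, so the last was near that limit. The peak centred at 36612519 carried a pair of AP-1 cores and lay 288 bp from the nearest ATF3-Ctrl peak.

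In ATF3-Ctrl, the peaks without overlap were chr6:36630884-36631010 (score 24, count 20.1, 13.1 to 29.4), the peak near *DINOL*, and the intron peak centred at 36648068. At equal binding in ATF3-CPT, the first would have had a score of 28.7 against a threshold of 9, and the nearest ATF3-CPT centre lay 2179 bp from it. Its local enrichment was 5.84-fold, against 146.64-fold for site A.

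The ATF3 peaks of the window held the AP-1 core and the composite element but not the ATF/CRE core. The AP-1 core was found within 200 bp around the centre in 3 of 8 ATF3-Ctrl peaks and 5 of 10 ATF3-CPT peaks, against 33.5% and 42.6% of the lists and 3.24% and 3.37% of windows placed 1000 bp away. These included each of the ATF3-CPT peaks centred at 36647188 and 36648304 in intron 1, whose cores are in the sequences above. TGACGTCA, the ATF/CRE core, occurred in 0 of 8 and 0 of 10, against 2.04% and 1.46% of the lists. Site A held neither of these cores.

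The letters TGATGCAA, the core of the composite element of ATF and C/EBP proteins, were searched on both strands after the sequences had been read. They were found in 3 of 8 ATF3-Ctrl peaks and 3 of 10 ATF3-CPT peaks, which were the same 3 shared sites, centred in ATF3-Ctrl at 36612807, 36617806 and 36635026 (site A). Over the lists they were in 13.4% of ATF3-Ctrl peaks and 3.69% of ATF3-CPT peaks, against 0.52% and 0.561% of windows 1000 bp away. Among p53-CPT peaks they were in 0.341%. At these 3 sites they overlapped no other motif searched. At site A, TGATGCAA ended 12 bases before the p53 element, within the same stretch that is printed above.

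The change after CPT differed with these motifs over the genome. The 1689 shared sites with TGATGCAA and no AP-1 core had a median ratio of 0.75 (quartiles 0.58 and 0.97), and 2.13% were at least 2-fold higher. The 10586 shared sites with the AP-1 core and no TGATGCAA had a median of 2.44 (1.84 and 3.12), and 69.2% were at least 2-fold higher. Sites with both (353) had a median of 1.1, and sites with neither (14278) a median of 1.47. These ratios leave out every peak without a partner in the other list, and the classes need not have kept equal shares. Over the whole lists, TGATGCAA was in 13.4% of ATF3-Ctrl and 3.69% of ATF3-CPT peaks, and the AP-1 core in 33.5% and 42.6%. The medians therefore describe the sites kept in both lists, not each class as a whole. The 3 sites of the *CDKN1A* locus with TGATGCAA had ratios of 0.91, 1.21 and 0.89, of which 1.21 lay above the upper quartile of its class. The 2 shared sites with the AP-1 core had ratios of 0.93 and 2.35, of which the first lay below the lower quartile of its class.

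**Figure D4:**
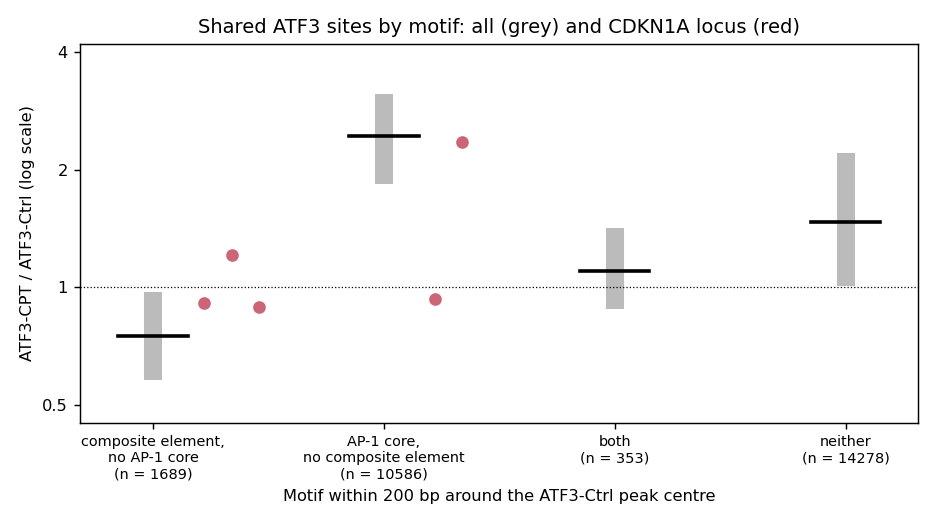
Ratio of ATF3-CPT to ATF3-Ctrl (log scale) at shared sites on chromosomes 1 to 22, X and Y by the motif within 200 bp around the ATF3-Ctrl centre; grey bars are quartiles, black lines medians, red points the 5 shared sites of the *CDKN1A* locus. Sites with the composite element centre on 0.75 and sites with the AP-1 core on 2.44, and the locus has 3 sites of the former class and 2 of the latter.

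The p53 element with at most 3 mismatches was found in 3 of the 4 p53-CPT peaks of the window, all but the weak peak in *RAB44*. It was in 18.2% of all p53-CPT peaks and in 43.2% of those without p53-KO overlap, against 4.05% and 4.23% of windows 1000 bp away, so a match with 3 mismatches, as in the intron, is not rare by itself. The p53 peaks of the window held 0 AP-1 cores.

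*CDKN1A* was then set beside 24 other known p53 target genes under the same window rule. Of these genes, 22 (91.7%) had a p53-CPT peak without p53-KO overlap, where 18.3% of windows of protein-coding genes had one. In 10 of the 24, such a peak overlapped an ATF3-CPT peak, where 4.89% of windows had one. Those 4.89% were 985 windows, out of 3686 that held such a p53 peak at all. The closer comparison is therefore with 10 of the 22 genes that held one. None of the 24 had a p53 score above the 176 of *CDKN1A*. The next were *GADD45A*, a gene of growth arrest and DNA repair, with 108 and a normalized tag count of 466.9, *RRM2B*, a subunit of ribonucleotide reductase, with 78 and 306.0, and *MDM2*, the ubiquitin ligase that restrains p53, with 71 and 258.7. *GDF15*, a stress-induced cytokine, was the 1 gene with as many p53 peaks as *CDKN1A*.

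The 10 genes with p53 and ATF3-CPT peaks in overlap were *MDM2*, *BBC3*, *GADD45A*, *XPC*, *GDF15*, *PHLDA3*, *POLH*, *TP53INP1*, *PPM1D* and *PLK2*. At *MDM2*, *GADD45A*, *XPC*, *PHLDA3*, *POLH*, *TP53INP1*, *PPM1D* and *PLK2*, every such p53 peak overlapped ATF3-CPT, so the highest necessarily did. Only *GDF15* (3 of 4 in overlap), *BBC3* (1 of 2) and *CDKN1A* (1 of 4) held p53 peaks of both kinds. The highest p53 peak overlapped ATF3-CPT at *GDF15*, but not at *CDKN1A* or at *BBC3*, an activator of apoptosis. Where the overlapping ATF3 site was shared between ATF3-Ctrl and ATF3-CPT, the ratio was 0.75 at *GADD45A*, 1.83 at *GDF15*, 2.02 at *POLH*, 2.09 at *TP53INP1*, 2.30 at *BBC3* and 3.41 at *PPM1D*, and 1.17 and 3.58 at the sites of *MDM2*. Of these, *GADD45A* was the 1 gene with a ratio below the 0.89 of site A.

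**Figure D5:**
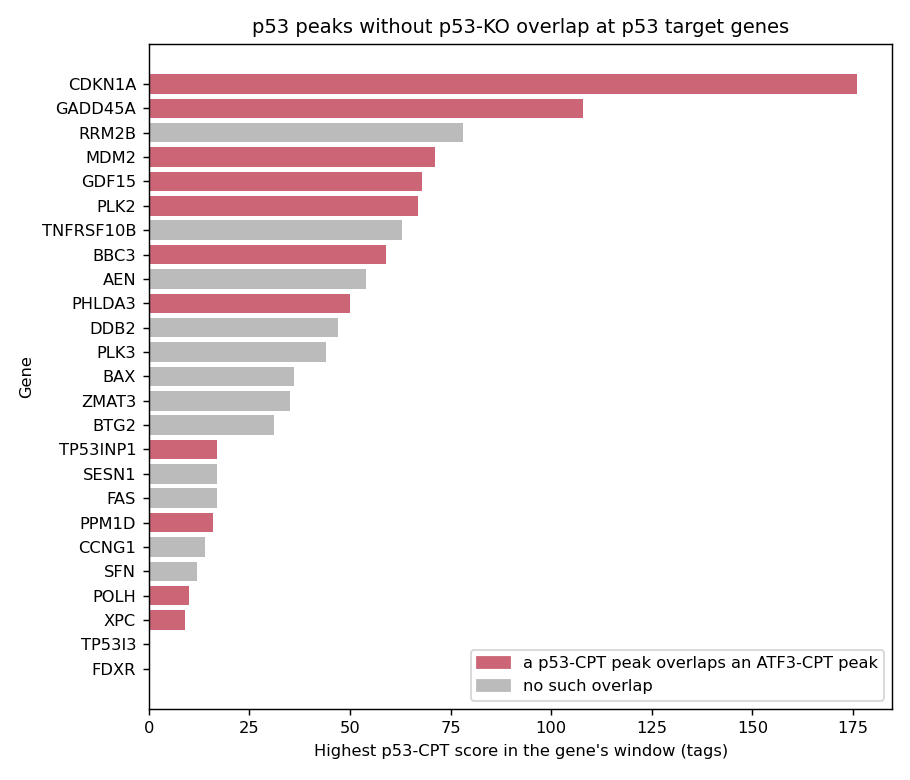
Highest p53-CPT score (tags, linear axis from 0) among peaks without p53-KO overlap in the window of *CDKN1A* and of each of 24 other p53 target genes; red bars mark genes where such a peak overlaps an ATF3-CPT peak. *CDKN1A* has the longest bar at 176, followed by *GADD45A* at 108, and *TP53I3* and *FDXR* have no such peak.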

How the data were processed

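Per the labels and the study's methods, the authors sequenced ChIP DNA, aligned reads to hg19 and called peaks in each library separately. The submitters' processing notes name BWA 0.6.1 and HOMER 4.1. Per the file headers, peaks met a false discovery rate of 0.001, a 4-fold enrichment over the local 10000 bp and a local p-value of 1e-04, and no input control was named. The authors scaled tags to a signal per 10000000 tags of the library, deposited as the normalized tag count. The deposited score is a count of tags that the authors did not adjust for depth. The authors also deposited a focus ratio, a fraction of tags near the centre, a local fold enrichment with its p-value, and a clonal fold. Only the local fold is quoted.

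Tag thresholds were 9 (ATF3-Ctrl, ATF3-CPT), 11 (ATF3-KO), 7 (p53-CPT) and 6 (p53-KO), and 1 tag was worth 0.772, 0.647, 0.78, 3.15 and 5.04 normalized tags in ATF3-Ctrl, ATF3-CPT, ATF3-KO, p53-CPT and p53-KO. Whole tags were recovered from the normalized counts and library totals. Overlap meant at least 1 bp, with the highest-scoring partner. Expected scores at equal binding were scaled by library totals. Motifs were searched on both strands of GRCh37 and genes taken from GENCODE release 44, and 0 peaks lay past a chromosome end. Motif shares used chromosomes 1 to 22, X and Y. No test was made, because each group had 1 library. The members and gene lists were chosen with earlier results of these data known. Every peak in the window was named, with p53 peaks and their nearest ATF3 peaks in full, and of the other p53 targets those with the 3 highest scores or an ATF3-CPT overlap. TGATGCAA, the sites as strong as site A and the pairing within 300 bp were chosen once the data were known. Alternatives varied the window, score, overlap, scaling, motif width and mismatches. Python 3.11.15, pandas 2.3.3, SciPy 1.17.1, pysam 0.24.0 and matplotlib 3.10.9 were used, and the functions were tested on simulated data.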

Additional observations from a re-analysis of the deposited data

How the results depend on the processing

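Of 73 values under alternative settings that answer a comparison, 57 were within the limits set for a like value and 16 moved, and 0 reversed. The 57 include counts of the knockout lists, which were 0 under every setting. They also include 10 ATF3-Ctrl and 15 ATF3-CPT peaks in a window of 100 kb upstream to 50 kb past the gene. A window of 20 kb upstream to 20 kb past the gene held 5 ATF3-Ctrl and 6 ATF3-CPT peaks. A score of at least 20 left 4 ATF3-Ctrl and 6 ATF3-CPT peaks. A window of 100 kb upstream to 50 kb past the gene held 7 p53-CPT peaks. The number of shared ATF3 sites at least 2-fold higher after CPT was 0 when ratios were divided by the median of all shared sites, 0 with centres within 50 bp, 0 with a score of at least 15 in both lists and 2 with centres within 300 bp. That last count includes the pair of intron 1 peaks with no base in common, which held different AP-1 cores. Division by the median, a shift of 0.84 on the log2 scale, made 1 site at least 2-fold lower, site A, with a ratio of 0.49, while the site centred at 36612807 came to 0.51. With centres within 1000 bp, 2 p53-CPT peaks had an ATF3-CPT partner. The AP-1 core was in 1 ATF3-Ctrl peak as deposited. With 1 mismatch it was in 6 ATF3-Ctrl and 8 ATF3-CPT peaks, and the ATF/CRE core in 1 ATF3-Ctrl and 3 ATF3-CPT peaks. The cause of these shifts was not tested. No paired analysis was possible because each group had 1 library. Binding under the tag thresholds was not detectable, and the p53 libraries were the shallowest.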

Other observations

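Peaks at the relatives of *CDKN1A* in the CIP/KIP family of cyclin-dependent kinase inhibitors were counted under the same window rule. *CDKN1B*, which encodes p27, had 8 ATF3-CPT and 3 ATF3-Ctrl peaks, and its 1 p53-CPT peak overlapped a p53-KO peak. *CDKN1C*, which encodes p57, had 12 ATF3-CPT and 10 ATF3-Ctrl peaks and 0 p53-CPT peaks. *CDKN1A* had 10, 8 and 4. Over all windows of protein-coding genes, the median was 5 ATF3-CPT and 2 ATF3-Ctrl peaks, and 18.3% held a p53-CPT peak without p53-KO overlap, so the lack of one at these relatives is not particular to them. As each group had 1 library, these counts carry no error between cultures.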
